A study of Mus musculus with 3 samples.

Results

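Interferon-stimulated genes are the genes that cells switch on when interferon binds its receptors. The 38 genes described here were given as a list of symbols and matched to the gene names of all 3 single-cell libraries; all 38 were found among the 27998 genes counted in each. The list was not chosen from measured values of these libraries by its rule, but it was proposed with earlier results of these data known. For each cell a score was computed as the summed unique molecular identifiers (UMIs, each marking 1 captured transcript end) of the 38 genes per 10000 UMIs of that cell.

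The libraries came from hearts of C57BL/6 mice aged 8 to 12 weeks, and there was 1 library in each group. The steady-state macrophage library and the day 11 library both came from mice of the genotype Cx3cr1CreER-YFP/+:R26Td/+, which places a tamoxifen-activated Cre recombinase under the Cx3cr1 gene and a tdTomato reporter that Cre switches on at Rosa26; in the first the heart was at steady state, in the second it was taken 11 days after myocardial infarction. The macrophage and DC library came from wild-type mice at steady state and held dendritic cells (DCs) as well as macrophages. The macrophage gate took live cells positive for CD45, CD64 and CD11b; the DC gate took CD45+ cells without CD64 that carried CD11c and MHCII at an intermediate to high level. The digestion buffer contained flavopiridol, which inhibits transcription. The number of animals pooled is not stated for any library. The series was designed to set cardiac macrophages after infarction against those at steady state; since each group had 1 library, there is no replicate error, no p-value is given, and every interval is a 95% interval that covers counting error only. In addition, the wild-type library differs from the other two in genotype and in its sort, which cannot be told apart.

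Type I interferons bind the receptor IFNAR and interferon gamma binds IFNGR. Both receptors activate Janus kinases. Below IFNAR these phosphorylate STAT2, which with IRF9 takes part in ISGF3, the complex that binds interferon-stimulated response elements in promoters, whereas the response to interferon gamma acts through gamma-activated sites. The genes switched on include sensors of viral nucleic acid, effectors that block viral replication, chemokines, and feedback factors such as IRF7 and USP18. Macrophages of many tissues transcribe such genes at a low level without infection, and interferon-responding myeloid cells are known to appear in the heart after infarction.

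Promoters were examined first, because the members are defined by a shared response. RefSeq windows of build GRCm38.p6, from 250 bases before to 50 bases after a gene's start, matched 31 of the 38 members. The core of the interferon-stimulated response element, spelled GAAA, then any 2 bases, then GAAA, and searched on both strands, lay in the windows of 17 of the 31 members (54.8%), against 1079 of 27025 genes (3.99%). The core of the gamma-activated site, TTCNNNGAA, lay in those of 7 of the 31 (22.6%), against 9.55% of genes. The windows of Ifit3 and Ifit3b, neighbouring copies of 1 gene, were identical at 99.2% of 260 aligned positions and held their matches at the same spacing of 34 bases. The transcript ends of these copies were not aligned, so whether the counting could tell their reads apart was not tested. Promoters of 6 genes are printed because their genes return below: Isg15 (chr4:156200819-156201068, minus strand), a ubiquitin-like modifier; Ifit1 (chr19:34640639-34640888, plus strand), Ifit3 (chr19:34583279-34583528, plus strand) and Ifit3b (chr19:34607707-34607956, plus strand), of a family of RNA-binding inhibitors of viral translation; Cxcl10 (chr5:92348890-92349139, minus strand), a chemokine for T cells; and Oas1a (chr5:120907526-120907775, minus strand), a synthase of the 2′-5′ oligoadenylates that activate RNase L. Each sequence is the 250 bases before the start, 5′ to 3′ along the gene, from RefSeq GRCm38.p6, with every match to the response element core in capitals (a match on the opposite strand reads as its reverse complement, and matches may overlap).
Isg15: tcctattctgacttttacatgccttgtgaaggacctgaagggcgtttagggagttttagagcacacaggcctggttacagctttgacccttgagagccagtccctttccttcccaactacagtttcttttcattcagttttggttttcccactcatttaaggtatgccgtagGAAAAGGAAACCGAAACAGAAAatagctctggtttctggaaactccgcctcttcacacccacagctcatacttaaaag
Ifit1: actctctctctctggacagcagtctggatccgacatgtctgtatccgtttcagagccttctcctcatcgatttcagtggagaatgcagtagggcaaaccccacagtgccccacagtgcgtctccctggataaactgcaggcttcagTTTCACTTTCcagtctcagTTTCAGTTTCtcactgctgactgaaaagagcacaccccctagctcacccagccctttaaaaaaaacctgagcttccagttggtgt
Ifit3: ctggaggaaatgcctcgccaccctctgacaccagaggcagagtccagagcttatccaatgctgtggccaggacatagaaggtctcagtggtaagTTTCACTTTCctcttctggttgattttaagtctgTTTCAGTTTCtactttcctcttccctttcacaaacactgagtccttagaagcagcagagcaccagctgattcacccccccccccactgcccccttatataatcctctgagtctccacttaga
Ifit3b: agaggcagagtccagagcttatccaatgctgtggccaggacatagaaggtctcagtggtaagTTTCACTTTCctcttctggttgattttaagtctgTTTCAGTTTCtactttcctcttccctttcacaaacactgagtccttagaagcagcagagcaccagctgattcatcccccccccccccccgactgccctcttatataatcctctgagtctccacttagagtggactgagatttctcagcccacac
Cxcl10: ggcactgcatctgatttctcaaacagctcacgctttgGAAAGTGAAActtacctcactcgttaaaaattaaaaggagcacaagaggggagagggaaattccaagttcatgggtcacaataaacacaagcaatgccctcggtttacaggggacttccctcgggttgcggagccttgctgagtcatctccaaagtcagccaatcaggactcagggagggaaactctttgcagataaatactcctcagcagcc
Oas1a: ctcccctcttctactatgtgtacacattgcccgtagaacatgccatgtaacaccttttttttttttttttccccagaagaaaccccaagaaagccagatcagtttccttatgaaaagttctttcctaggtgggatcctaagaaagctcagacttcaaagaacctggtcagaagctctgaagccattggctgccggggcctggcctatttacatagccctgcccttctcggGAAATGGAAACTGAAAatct

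Isg15 held 3 overlapping matches beginning 78, 72 and 66 bases before its start, and Oas1a held 2 at 20 and 14 bases. A match is a description of these letters, not of a bound site.

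After filtering and removal of predicted doublets, the numbers of cells that remained were 1741 for steady-state macrophages, 4497 at day 11 and 1742 for macrophages with DCs. Clusters were built without the members, but other interferon-induced genes were not left out. The macrophage compartment, all clusters except those with low general macrophage genes and high genes of another cell type, held 1680, 4345 and 992 cells, with median depths of 10656, 8105 and 5419 UMIs per cell. The sort's gene Fcgr1, which encodes CD64, stood at 219.8, 252.3 and 105.5 UMIs per 1000000 UMIs (CPM) in the 3 compartments. The macrophage and DC library held 377 cells with cDC1 genes and 355 with cDC2 genes (conventional DCs of type 1 and type 2), and the day 11 library 107 cDC2-like cells although its gate was for macrophages. General macrophage genes were below the average of all cells (median log2 fold under 0) in 5 compartment clusters, lowest in cluster 11 (-2.02), which is led by Retnla and Cd2 and made up 190 of the 992 compartment cells of the macrophage and DC library. Libraries shared 7 to 11 cell barcodes per pair, and no library was left out.

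The typical day 11 macrophage carried less of these transcripts than the typical steady-state macrophage of the same genotype, while the richest cells carried more. The median score was 18.7 UMIs per 10000 in the steady-state macrophage library (interval 18.2 to 19.3), 12.6 in the day 11 library (12.3 to 12.9) and, for macrophages of the macrophage and DC library, 9.04 (8.47 to 9.68). The day 11 library thus lay between the steady-state libraries. Without cluster 11 the median of the macrophage and DC library was 10.2 (9.72 to 11.1), and without all 5 clusters low in general macrophage genes the medians were 18.9, 12.3 and 10.6. Dividing the day 11 quantiles by those of the steady-state macrophage library gave 0.463 at the 5th percentile, 0.671 at the median, 1.02 at the 95th and 1.64 at the 99th. The distribution therefore did not shift as a whole: it was lower through its middle and longer at its top. The 5% of cells with the highest scores held 14.7% of all member UMIs in the steady-state macrophage library, 26.3% at day 11 and 23.0% in the macrophage and DC library. After thinning each cell to 3000 UMIs, which removes unequal depth, the medians were 16.7, 13.3 and 10.0, in the same order.

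**Figure D1:**
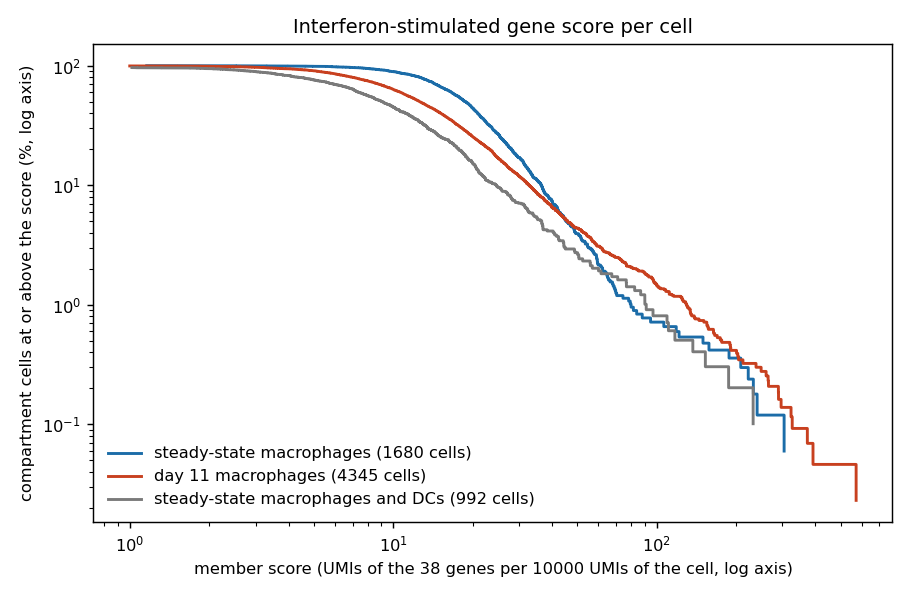
Share of macrophage compartment cells (percent, log axis) at or above each member score (UMIs of the 38 genes per 10000 UMIs of the cell, log axis), 1 line per library. The day 11 line runs left of that of the steady-state macrophage library at the median (12.6 against 18.7), meets it near the 95th percentile (45.8 against 45.1) and lies right of it at the 99th (128.8 against 78.4).

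Summed over all cells of a compartment, the members made up 2182 CPM in the steady-state macrophage library, 1855 CPM at day 11 and 1159 CPM in the macrophage and DC library. The day 11 level was 0.850 times that of the steady-state macrophage library (0.840 to 0.860) and 1.6 times that of the macrophage and DC library (1.56 to 1.64), so the direction depends on which steady-state library is the reference. Cluster 11 of the macrophage and DC library held the members at 617.9 CPM. Without that cluster the library stood at 1377 CPM, and the day 11 ratio against it was 1.35 (1.31 to 1.38). In sums, fewer transcribing cells and less RNA per cell cannot be told apart. A member was counted as different when it reached 20 CPM in either library and differed at least 2-fold. Between day 11 and the steady-state macrophage library, 27 members reached 20 CPM and none differed 2-fold, where 4.29% of all genes tested did (228 of 5318); 23 of the 27 lay below 1, with a median log2 ratio of -0.19 against -0.06 for all genes. Between day 11 and the macrophage and DC library, 5 of 26 members were at least 2-fold higher at day 11 (Ifit1, Ifit3, Irf7, Rsad2 and Rtp4), where 5.82% of genes were; without cluster 11 in the reference, 3 members differed 2-fold. Between the steady-state libraries, 9 of 25 members were at least 2-fold lower in the macrophage and DC library, where 7.84% of genes were. Genes induced by dissociation, such as immediate early genes, moved as well: their list summed to 4825, 2891 and 3726 CPM in the 3 compartments, and the part of dissociation in the members' levels was not tested.

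The members differed in how they stood at day 11. Among transcription factors, Irf7, the factor that amplifies interferon production, stood at 60.7 CPM in the steady-state macrophage library, 80.2 at day 11 and 24.2 in the macrophage and DC library, a day 11 ratio of 1.32 (1.24 to 1.41). Irf9, the DNA-binding part of ISGF3, stood at 74.5, 50.6 and 33.2 CPM, a ratio of 0.679. Its partner Stat2 followed the same order at 22.0, 16.0 and 11.4 CPM. Irf7 was thus higher at day 11, where both subunits of ISGF3 in the list were lower.

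Among antiviral effectors, Bst2, the membrane protein tetherin that holds budding virions at the cell surface, had the most UMIs of all members (19.2% of the total) and the levels 397, 369 and 211 CPM, a day 11 ratio of 0.931. Isg15 was level between the libraries of 1 genotype, at 78.6 and 82.0 CPM (1.04, 0.985 to 1.11), and lower in the macrophage and DC library at 46.4 CPM. Rtp4, a receptor transporter protein with antiviral activity, had the lowest day 11 ratio of the members that reached 20 CPM, 0.563 (0.539 to 0.589), from 177.5 to 99.9 CPM, and stood at 45.5 CPM in the macrophage and DC library. Samhd1, which depletes the nucleotides a retrovirus needs, stood at 171, 152 and 129 CPM. The oligoadenylate synthase Oas1a and its relative Oasl2 stood at 0.659 and 0.660 of the steady-state level. Ifit1 went the other way, at 16.4, 21.3 and 5.61 CPM (1.30, 1.15 to 1.48), as did Ifit2 at 9.35, 13.8 and 3.59 CPM (1.48, 1.26 to 1.75), whereas their neighbour Ifit3 stood at 49.0, 43.3 and 16.4 CPM. The Ifit genes lie side by side in build mm10 at chr19:34550694-34650009, and over all compartment cells these neighbours did not share a direction. Without the clusters filled by day 11 cells, described below, Ifit1, Ifit2, Ifit3 and Ifit3b were all higher at day 11 (2.29, 2.84, 1.74 and 1.68). Ifi44 was rare throughout, with 12, 91 and 1 UMIs.

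The other members of the upper range mostly followed the order of the summed score. Oas1a stood at 104, 68.3 and 56.1 CPM, Oasl2 at 88.8, 58.6 and 30.2 CPM, and Trim30a, a ubiquitin ligase that damps Toll-like receptor signalling, at 86.5, 68.9 and 53.9 CPM. Zbp1 (a sensor of Z-form nucleic acid), Xaf1, Ifi47, Eif2ak2 (the kinase PKR), Parp14, Slfn5, Gbp2, Usp18 (which removes ISG15 from proteins and damps IFNAR) and Dhx58 (the sensor LGP2) stood between 27.1 and 68.7 CPM in the steady-state macrophage library, and each was lower at day 11 and lower again in the macrophage and DC library. Members near or under 20 CPM went both ways. Herc6, Cmpk2, Ifit3b and Mx1, a dynamin-like GTPase that traps viral nucleocapsids, were lower at day 11 (Mx1 at 7.43 against 10.0 CPM). Isg20, Oasl1 and Oas3 were higher at day 11, Oas3 at 6.07, 9.30 and 2.03 CPM (1.53, 1.26 to 1.88), and Rsad2 stood at 19.2, 20.8 and 7.64 CPM.

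Of the chemokines that draw CXCR3-bearing T cells, Cxcl10 stood at 64.4, 56.5 and 71.9 CPM and was the only member tested that was higher in the macrophage and DC library than in the steady-state macrophage library. Cxcl9 stood at 14.4, 12.8 and 9.20 CPM. The nucleic acid sensors Ifih1 (MDA5) and Ddx58 (RIG-I) differed little between the libraries of 1 genotype, at 24.9 against 23.4 and 23.0 against 21.8 CPM. Ifi204, a DNA-binding protein of the Ifi200 family, stood at 158, 124 and 84.6 CPM, and its relative Ifi205 at 6.71, 9.55 and 10.8 CPM, on low counts; the family's members resemble each other in sequence and their counts may be mixed.

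**Figure D2:**
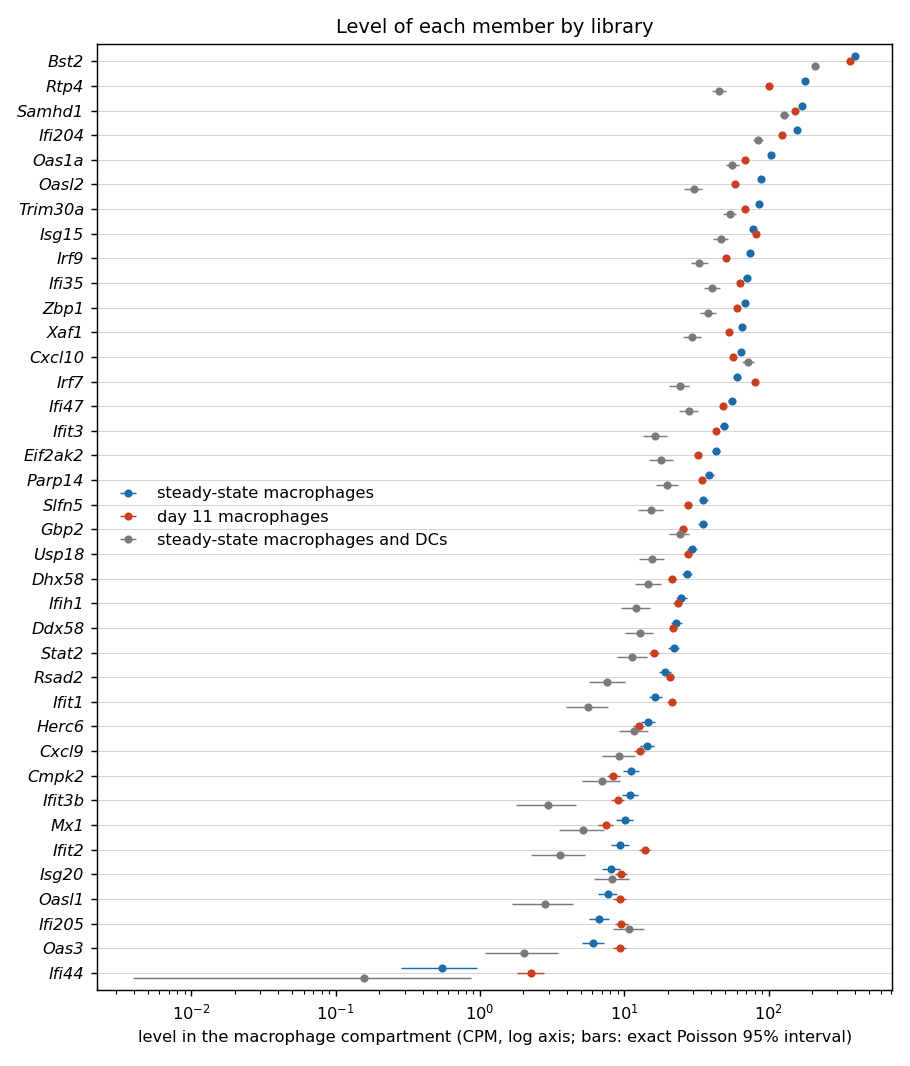
Level of each member in the macrophage compartment of the 3 libraries (CPM, log axis), 1 point per library with its exact Poisson 95% interval, which covers counting error only. The macrophage and DC library has the lowest point for most members, with exceptions such as Cxcl10 (71.9 against 64.4 and 56.5 CPM), and Irf7, Ifit1 and Ifit2 are among the members whose day 11 point is the highest.

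Members fell along a range from evenly spread to held by few cells. For each member, cells were ranked by the score of the other 37 members, and the share of the member's UMIs in the top 5% of cells was taken from thinned cells; an even spread would give 5%. Members with at least 20 UMIs in thinned cells were counted, which were 37 in the steady-state macrophage library, 38 at day 11 and 31 in the macrophage and DC library. The median share over members was 17.9% in the steady-state macrophage library, 27.7% at day 11 and 22.2% in the macrophage and DC library. Irf9 was the most even of these members in all 3, at 5.63%, 7.27% and 5.95%. Bst2 (7.59%, 12.0%, 13.5%) and Samhd1 (9.14%, 12.6%, 8.72%) were also spread more evenly than most. At the other end, 8 members had at least 50% of their day 11 UMIs in these few cells, against 1 in the steady-state macrophage library and 2 in the macrophage and DC library. The last count depends on the limit of 20 UMIs. Below it in that library, Ifit1, Ifit2 and Ifit3b stood at 62.2%, 81.8% and 58.2%, on 19, 11 and 10 UMIs. Of the others below it, Oasl1 and Ifi44 stood at 50.0% and 100%, and Isg20 and Oas3 at 26.3% and 33.3%. Isg15 went from 26.7% at steady state to 51.4% at day 11, Ifit3 reached 65.9% and Ifit3b 73.3%, and Ifit1, Ifit2, Rsad2, Ifi205 and Cmpk2 made up the 8. Rsad2 encodes viperin, an enzyme that makes a chain-terminating nucleotide, and Cmpk2, its neighbour on chromosome 12, supplies its substrate. Of these 8, 6 held the response element core in their windows (75%), Ifit2 and Cmpk2 being without it, against 11 of the other 23 (47.8%). The 8 were picked from these same data and include Ifit3 and Ifit3b, whose windows are near copies. On so few genes the shares are a description, and their difference was not tested.

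**Figure D3:**
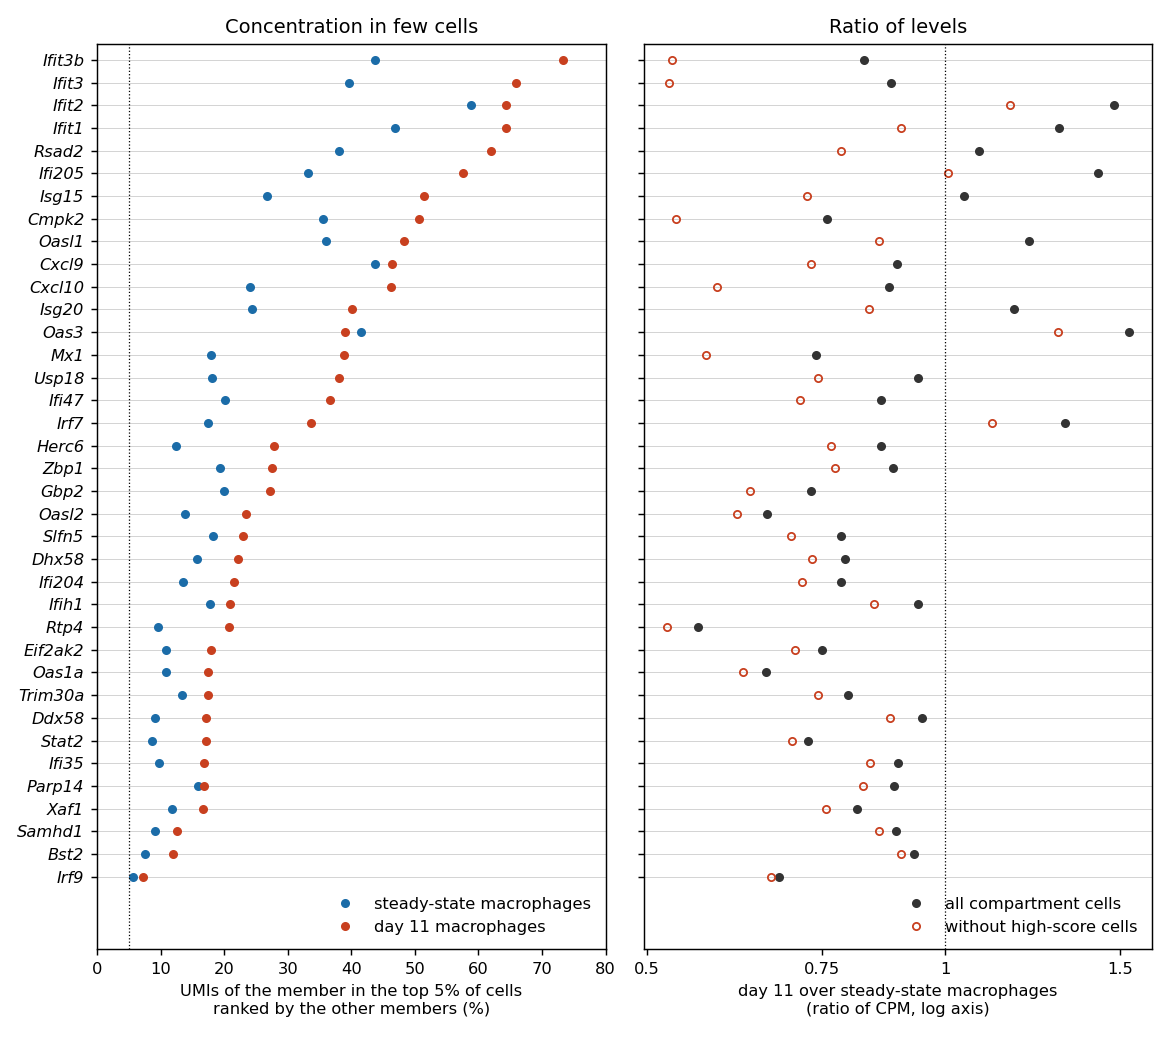
Left, share of each member's UMIs held by the 5% of cells that rank highest by the other members (percent, thinned cells) in the libraries of 1 genotype, with a dotted line at an even 5%. Right, ratio of each member's level (CPM, log axis) at day 11 to steady-state macrophages over all compartment cells (filled) and without the high-score cells described next (open). Members near the top, such as Ifit3b (73.3% at day 11) and Isg15 (51.4%), have the wider gap between filled and open points, and Irf9 (7.27%) has almost none. The choice of high cells by the same members makes this match likely in itself. Ifi44 is not drawn.

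To count the cells behind this, a cell was called high when its thinned score was at least 5 times the median of the steady-state macrophage library, which is 83.33 per 10000 or 25 member UMIs in 3000. There were 18 such cells of 1680 in the steady-state macrophage library (1.07%, exact interval 0.636% to 1.69%), 86 of 4269 at day 11 (2.01%, 1.61% to 2.48%) and 10 of 842 in the macrophage and DC library (1.19%, 0.571% to 2.17%). The intervals of the first and second overlap slightly, and at 3 times the median there was no excess at day 11 (5.06% against 5.18% in steady-state macrophages). Between 0.8 and 1.2 times the limit lay 21, 56 and 6 cells. The high cells held 7.03%, 16.8% and 11.3% of the member UMIs and carried a median of 16, 18.5 and 16 different members, against 4, 3 and 2 in the other cells, which the choice by score makes likely in itself. Leaving them out moved the day 11 ratio of the summed members from 0.850 to 0.757 (0.748 to 0.766). Single members moved more: Isg15 from 1.04 to 0.724, Ifit1 from 1.30 to 0.901, Ifit3 from 0.882 to 0.526 and Cxcl10 from 0.877 to 0.588. Irf9 (0.679 and 0.666), Bst2 (0.931 and 0.902) and Rtp4 (0.563 and 0.524) hardly moved. The high cells were chosen by these same members and were a larger share at day 11. Leaving them out therefore lowers the ratios by construction, most for members concentrated in few cells. Because a few cells bring many of these UMIs at once, the counting intervals of concentrated members are too narrow.

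The high cells were not spread evenly over clusters. Cluster 0, led by Mmp13 and Lilra5, held 10 of the 18 high steady-state macrophages, 40 of the 86 at day 11 and 6 of the 10 in the macrophage and DC library, being 2.43%, 6.87% and 5.77% of that cluster's cells. Cluster 8, led by the monocyte genes Ly6c2 and Plac8, held 20 of the 86 at day 11 (11.6% of its cells there). The place of the high cells depends on the clustering, which other interferon-induced genes could still shape. With predicted doublets kept, a separate cluster of 42 cells (6, 29 and 7 by library) had Iigp1, Ifit1bl1, Gbp4 and Gbp5 among its leading genes. How many high cells it held was not counted. A list of monocyte genes summed to 1085, 2473 and 2679 CPM in the high cells of the 3 libraries, against 378, 723 and 801 CPM in the whole compartments.

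Within the day 11 library, scores were lower in the clusters that day 11 cells filled. Clusters 1, 2, 3 and 14, of which at least 90% of the compartment's cells came from day 11, made up 65.8% of the day 11 compartment, 1.67% of the steady-state macrophage compartment and 0.806% of that of the macrophage and DC library. Their day 11 median scores were 13.2 in cluster 1 (led by Saa3 and Col3a1), 11.4 in cluster 2 (Cxcr3, Tmem119), 8.09 in cluster 3 (Gpnmb, Syngr1) and 11.2 in cluster 14 (Cxcl3, Arg1). Set against the other day 11 cells, their summed member level was 0.542 times as high (0.535 to 0.550), all 29 members tested were below 1, and 14 were at least 2-fold lower, where 3.15% of genes were. Of the members at 20 CPM, those lowest there were Cxcl10 (4.23-fold lower), Ifit3 (3.88-fold), Rsad2 (3.63-fold) and Ifit2 (3.51-fold), and of the rarer members Ifit3b was 4.12-fold and Oasl1 3.64-fold lower; Isg15 stood at 48.5 against 150.8 CPM, and Bst2 at 0.835 times the level of the other cells. Since clusters were built from these same cells, this is a description.

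In clusters that both libraries of 1 genotype filled, the day 11 level lay on either side of the steady-state level. Without the 4 clusters above, the day 11 ratio was 1.22 (1.21 to 1.24), 24 of 29 members lay above 1, and 4 were at least 2-fold higher (Ifit1 2.29, Ifit2 2.84, Irf7 2.06 and Rsad2 2.09), where 1.14% of genes were; the median score was 17.15 against 18.74. In cluster 0 the summed members stood at 2452 CPM at steady state and 3138 CPM at day 11 (1.28, 1.25 to 1.31), with medians of 18.8 and 17.7, and 5 of 34 members were at least 2-fold higher (Ifit1, Ifit3, Irf7, Oasl1 and Rsad2), where 0.463% of genes were. In cluster 4, led by the resident macrophage genes Lyve1 and Timd4, the ratio was 1.13 and no member of 27 differed 2-fold, where 0.716% of genes did. Cluster 5, with Vsig4 and Lyve1 among its leading genes, had the higher median log2 fold of resident macrophage genes (2.62 against 1.57). Its ratio was 0.975 (0.932 to 1.02), so the clusters with resident genes did not share a direction. In cluster 10 (led by Actc1) the ratio was 0.931, and in cluster 12 (led by Ace) it was 1.15. In cycling cells (cluster 7) the ratio was 0.855, and their day 11 median of 12.2 lay within the range of the clusters that day 11 cells filled. The macrophage and DC library had a lower median than the steady-state macrophage library in each of these clusters. In clusters 0, 4 (22 cells) and 7 it was 12.1, 10.9 and 6.05, against 18.8, 19.3 and 15.1. In clusters 5, 10 and 12 (15 cells) it was 10.6, 9.04 and 7.69, against 18.5, 20.1 and 22.9. The difference between the steady-state libraries was thus present within clusters, and genotype, sort, depth and handling cannot be told apart in it.

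**Figure D4:**
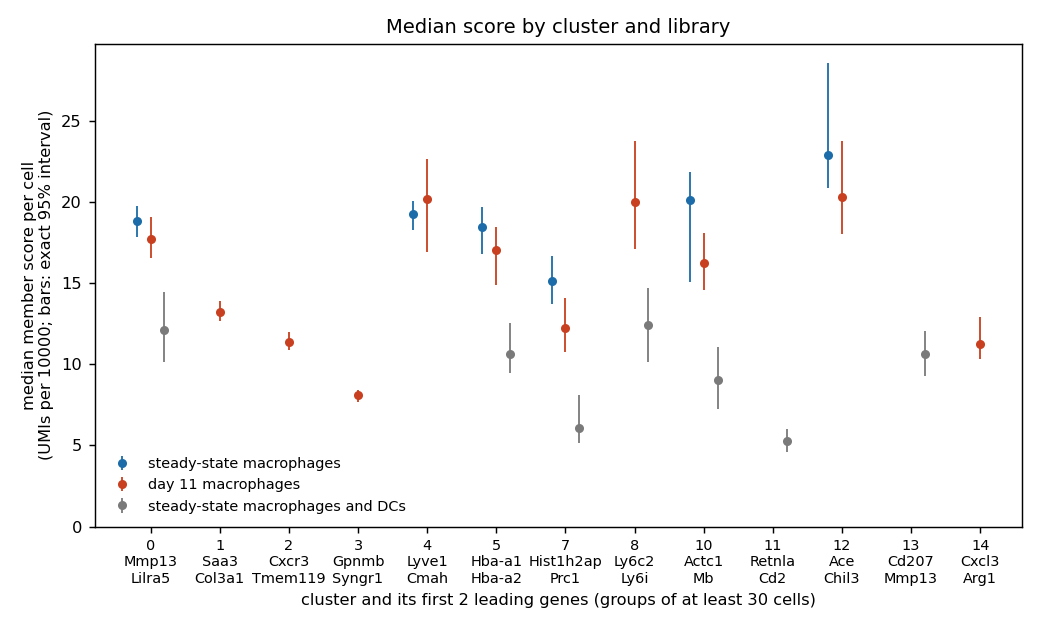
Median member score per cell (UMIs per 10000, bars: exact 95% interval) of each cluster of the macrophage compartment with at least 30 cells of a library, 1 point per library. The clusters filled by day 11 cells (1, 2, 3 and 14) lie between 8.09 and 13.2, below the day 11 medians of clusters 0, 4 and 8 (17.7 to 20.2); the cycling cells of cluster 7 (12.2 at day 11) lie within that range.

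Cells were next divided by whether they carried a UMI of Timd4, Ly6c2 or Ccr2 in 3000 thinned UMIs. Ly6c2 encodes the Ly6C antigen of inflammatory monocytes and is itself known to respond to interferon. Ly6c2-positive cells had the higher member level in each library: 1.35 times that of negative cells in the steady-state macrophage library (1.30 to 1.41, 54 positive cells), 2.47 times at day 11 (2.40 to 2.54, 112 cells) and 2.70 times in the macrophage and DC library (2.43 to 2.99, 18 cells). At day 11 the median scores were 22.3 and 12.5, and 26 of 37 members were at least 2-fold higher in positive cells, where 2.67% of genes were. Ifi205 stood at 99.6 against 6.80 CPM, Isg15 at 400 against 72.5 CPM and Irf7 at 336 against 72.4 CPM, whereas Bst2 differed 1.32-fold and Irf9 1.21-fold (0.943 to 1.53). In the steady-state macrophage library 4 of 29 members were 2-fold higher (Ifi205, Irf7, Mx1 and Zbp1), where 1.88% of genes were. High cells made up 13.4% of Ly6c2-positive and 1.71% of negative cells at day 11. Without the high cells the day 11 ratio was 1.51, without cluster 8 it was 1.55, and with 2 Ly6c2 UMIs required it was 3.5. A Ly6c2 UMI was found in 2.62% of thinned day 11 macrophages (4.99% unthinned), against 1 of 106 cDC2-like cells of that library (0.943%) and 9 of 29 lymphoid cells (31.0%), a class in which some cells are known to carry Ly6C. In the steady-state macrophage library the share was 3.21% (8.45% unthinned), and its few other cells (0 of 16 cDC2-like and 1 of 33 lymphoid cells) set no usable background. The corresponding shares of the macrophage and DC library were 2.14% of macrophages and 3 of 369 cDC1-like cells (0.813%).

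Timd4 encodes TIM-4, a phosphatidylserine receptor of long-lived resident macrophages. Timd4-positive cells differed little in the steady-state macrophage library, at 1.05 times the level of negative cells (1.03 to 1.07, 438 positive cells), 1.37 times at day 11 (1.32 to 1.42, 128 cells) and 1.29 times in the macrophage and DC library (1.19 to 1.39, 81 cells). In the steady-state macrophage library a Timd4 UMI was found in 26.1% of thinned macrophages (55.8% unthinned), against 5 of 33 lymphoid cells (15.2%). Those lymphoid cells held the macrophage gene C1qa at 6295 CPM, against 7258 CPM in the macrophages, so they set no clean background. At day 11 the share was 3.0% (7.36% unthinned), not above the 4 of 106 cDC2-like cells (3.77%). Those cDC2-like cells carried macrophage RNA too. Their C1qa stood at 2405 CPM, against 114.1 CPM in cDC2-like cells of the macrophage and DC library. This reference therefore cannot show how much of the day 11 Timd4 status is background. In the macrophage and DC library the share was 9.62% (14.2% unthinned), above the 4 of 342 cDC2-like cells (1.17%) but not above the 38 of 369 cDC1-like cells (10.3%), so its background depends on the class taken as reference. The day 11 ratio was 0.961 once the clusters filled by day 11 cells were left out. Ccr2 is the chemokine receptor by which monocytes leave the marrow and marks macrophages of recent monocyte origin. Ccr2-positive cells stood at 0.990 times the level of negative cells in the steady-state macrophage library (0.971 to 1.01), at 1.22 at day 11 (1.2 to 1.24) and at 0.844 in the macrophage and DC library (0.805 to 0.885). A Ccr2 UMI was found in 27.8%, 35.9% and 46.1% of thinned macrophages (47.2%, 49.7% and 51.3% unthinned). In the first library it was also found in 3 of 33 lymphoid cells (9.09%) and 9 of 16 cDC2-like cells (56.2%). The share was 37.9% at day 11 (11 of 29 lymphoid cells) and 46.6% in the macrophage and DC library (172 of 369 cDC1-like cells). The day 11 lymphoid cells held Ccr2 at 359.2 CPM and the cDC1-like cells at 227.8 CPM. None of these classes therefore sets a clean background for Ccr2 status. None of the 26, 26 and 17 members tested differed 2-fold by Ccr2 status, where 0.452%, 1.01% and 7.26% of genes did. With so few members tested, a count of 0 lies near those shares.

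Dendritic cells held the members at a summed level near that of macrophages, but single members differed widely and the typical cell of the cDC2-like class scored lower. In the macrophage and DC library cDC1-like cells, which take up dead cells and present their antigens to CD8 T cells, stood at 0.884 times the macrophage level (0.852 to 0.917), and cDC2-like cells, which present antigen to CD4 T cells, at 1.01 times (0.966 to 1.05). The median scores were 8.57 in cDC1-like and 6.70 in cDC2-like cells (6.15 to 7.23), against 9.04 in macrophages, and single cDC2-like cells spread widely (SD 30.5 over cells). Ifi205 alone made up 344.5 of the 1024 CPM of members in cDC1-like cells, where the median log2 ratio of the members tested was -1.05 against -0.17 for all genes. Of 17 members tested, 2 were at least 2-fold higher in cDC1-like cells and 9 lower, where 24.0% of genes differed 2-fold. Ifi205, at 10.8 CPM in macrophages, was 32.0-fold higher (25.2 to 41.4), and Ifi35, an interferon-induced leucine zipper protein, stood at 94.0 against 40.5 CPM. Cxcl10 stood at 2.0 against 71.9 CPM, Rtp4 at 1.33 against 45.5 CPM and Oas1a at 4.45 against 56.1 CPM. Of 20 members tested in cDC2-like cells, 3 were at least 2-fold higher and 3 lower, where 12.5% of genes differed 2-fold. The same direction as in cDC1-like cells held for Ifi205 (2.16-fold higher) and Ifi35 (2.04-fold), and for Cxcl10 (2.97-fold lower), Rtp4 (2.49-fold) and Ifi204 (3.87-fold). Cxcl9 was the other higher member, and it was at least 2-fold lower in cDC1-like than in cDC2-like cells. Ifi205 and Ifi204, relatives in 1 gene family, thus lay on opposite sides in DCs. In the cDC2-like cells of day 11, 3 of 27 members were at least 2-fold lower than in macrophages. These were again Cxcl10 (2.53-fold) and Ifi204 (2.02-fold), and also Rsad2. Only Isg20, an exonuclease of viral RNA, was at least 2-fold higher (2.17-fold), where 9.84% of genes differed either way. High cells were 1 of 369 cDC1-like cells (0.271%) and 4 of 342 cDC2-like cells (1.17%).

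**Figure D5:**
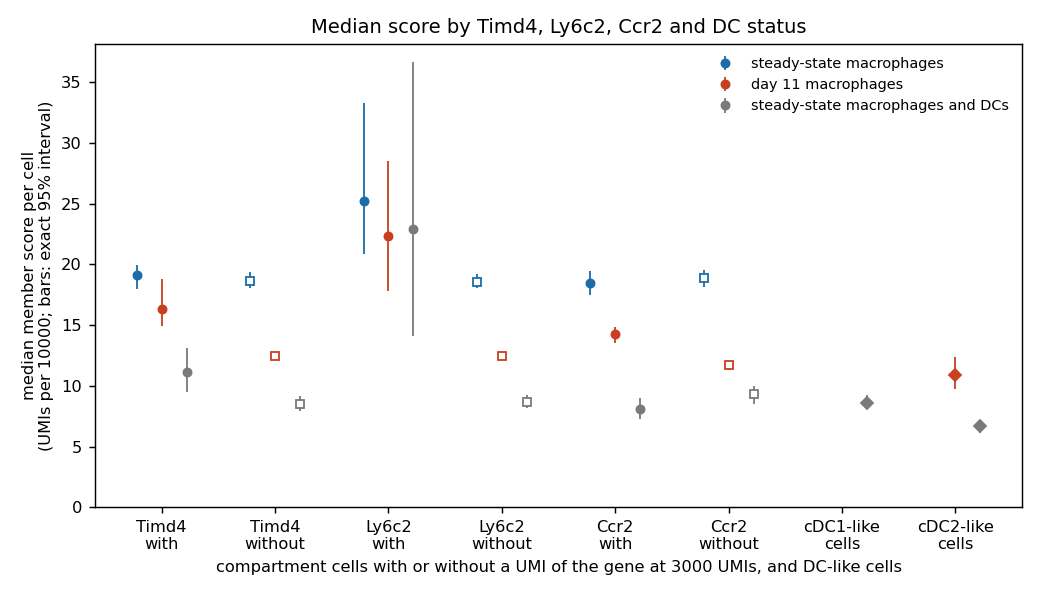
Median member score per cell (UMIs per 10000, bars: exact 95% interval) in macrophage compartment cells with (filled circles) and without (open squares) a UMI of Timd4, Ly6c2 or Ccr2 after thinning, and in DC-like cells (diamonds), by library. Cells with Ly6c2 have the higher median in each library (25.2, 22.3 and 23.0 against 18.5, 12.5 and 8.66), with wide intervals, while the Ccr2 pairs lie close together.

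The other genes of the pathway, a list of 102 of which 97 were measured, were set against the same libraries: of 68 that reached 20 CPM in the day 11 or the steady-state macrophage library, 49 lay below 1 at day 11, 1 was at least 2-fold higher (Ly6a, the Sca-1 antigen, 3.07-fold) and 4 were lower (Ifi27l2a, Oas2, Oas1g and Ddx60), so 5 of 68 differed 2-fold, where 4.29% of all genes did. The median log2 ratio of the 68 was -0.18 against -0.06 for all genes. Ifi27l2a, a small interferon-induced protein, went from 3273 to 1387 CPM. Ifi27l2a, Oas2, Oas1g and Ddx60 stood at 0.871, 1.84, 1.17 and 1.72 times the level of the macrophage and DC library. Among the ligands, the only UMIs of Ifnb1 or Ifng in the 3 compartments were 1 of Ifng in the steady-state macrophage library and 1 of Ifnb1 in the macrophage and DC library. All 4 receptor chains were at or above the steady-state level at day 11, from Ifnar1 at 1.02 to Ifngr2 at 1.53. Irf1, a transcription factor induced by interferon gamma, stood at 69.1, 43.9 and 34.4 CPM. All 9 tested targets of interferon gamma lay below 1 against the steady-state macrophage library, with a median log2 ratio of -0.40. Of all genes, 59.8% lay below 1, with a median of -0.06. Against the macrophage and DC library the direction was not shared. Gbp3 (0.899), Ciita (0.955) and Gbp7 (1.00) were not higher at day 11. Irgm1 (2.07), Igtp (1.70), Tap1 (1.27), Iigp1 (1.12), Psmb8 (1.09) and Psmb9 (1.09) were. The direction thus depends on the reference here too.

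Genes outside the list were ranked by the correlation (Pearson's r) of their level with the score across macrophage compartment cells, both as log(1 + UMIs per 10000), taking the lowest of the 3 libraries over 1680, 4345 and 992 cells; cells of 1 library share its preparation, both values share the cell's depth, and cells are not replicates. The first was Mnda, of the Ifi200 family, at 0.449, 0.499 and 0.357, followed by Fcgr1 at 0.306, 0.351 and 0.296. Of the first 15 genes, 10 were on the pathway list, and the median over 4147 candidate genes was -0.03.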

How the data were processed

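Cells of mouse hearts were sorted and their RNA was counted in 3 libraries prepared with 10x Chromium 3′ chemistry version 2, per the labels' protocols. The deposited values are raw UMI counts per gene and cell barcode; the authors used Cell Ranger and STAR with the mm10 genome, per the submitters' processing notes, with no version given in the sources used here. The libraries held 1806, 4697 and 1780 barcodes and 23710253, 45175863 and 14388327 UMIs (steady-state macrophages, day 11, macrophages and DCs).

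Barcodes with at least 500 genes and at most 10% mitochondrial UMIs were kept, and the barcodes with the highest Scrublet scores were removed as doublets at 0.8% per 1000 barcodes (26, 176 and 25), since the caller's own limit marked 8, 0 and 2. Cells were clustered with scanpy 1.11.5 and leidenalg 0.10.2 (2000 variable genes chosen by library, 1960 used after leaving out the members and mitochondrial, ribosomal and sex-linked genes, 30 components, 15 neighbours, resolution 1.0), giving 20 clusters. A cluster stood outside the macrophage compartment when its median log2 fold of general macrophage genes was below 0 and that of another marker list was at least 1, a rule set after seeing the data.

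Levels are summed UMIs per 1000000 (CPM). A ratio has an exact conditional binomial interval, a share an exact Clopper-Pearson interval and a median an order-statistic interval, all at 95%. PCR copies were collapsed by UMI. Thinned cells hold 3000 UMIs; 0, 76 and 150 macrophages were shallower and left out. A difference was called at 2-fold with 20 CPM in either group; scripts were tested on simulated data. Because 1 UMI marks 1 transcript end, levels carry no length term.

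The members, gene lists and rules were chosen with earlier results of these data known. Any member could be named; members were given in full when among the 10 highest by CPM or 2-fold different between the libraries of 1 genotype, the pathway's other genes when 2-fold different or needed for a role, and the 15 genes most like the score. Promoters are from RefSeq GRCm38.p6 (Biopython 1.88 for the alignment) and gene positions from GENCODE vM21. Alternatives covered filters, doublet removal, compartment rule, reference library, scaling, thresholds and thinning; those on clusters were added after seeing the data.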

Additional observations from a re-analysis of the deposited data

Results flagged for a closer look

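The relation of the members to Ccr2 status pointed in opposite directions in different libraries. The summed member level of Ccr2-positive over Ccr2-negative macrophages was 1.221 at day 11 and 0.8440 in the macrophage and DC library, with counting intervals on opposite sides of 1. In both libraries the share of macrophages with a Ccr2 UMI was not above that of another class, but those classes transcribed Ccr2 themselves. Each value comes from 1 library, and the difference between the libraries was not tested.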

How the results depend on the processing

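The day 11 ratio of summed members (0.850) was 0.837 with at least 1000 genes and at most 5% mitochondrial UMIs, 0.809 with macrophages chosen cell by cell, 0.757 without high-score cells, 0.799 without clusters low in general macrophage genes, 0.878 with median-of-ratios scaling and 0.832 without Bst2. It reversed to 1.6 against the macrophage and DC library, to 1.22 without the clusters filled by day 11 cells and to 1.11 with clusters weighted by their steady-state sizes; the cause was not tested. Members differing 2-fold (0) became 5 and 4 under the first and second of these. Against the macrophage and DC library without the Retnla cluster the summed ratio was 1.35 and that of medians 1.23 (both reversed), with 3 members differing 2-fold. The ratio of median scores (0.671) was 0.635 cell by cell, 1.39 against the macrophage and DC library (reversed), 0.915 without the day 11 clusters, 0.80 after thinning and 0.75 by members detected in thinned cells. High-score shares of 1.07%, 2.01% and 1.19% became 5.18%, 5.06% and 2.97% at 3 times the median (no excess at day 11) and 0.357%, 0.539% and 0.238% at 10 times; the first and second became 0.566% and 1.61% with the stricter filter. The Ly6c2 ratio of the steady-state macrophage library (1.35) was 1.42 with the stricter filter and 1.25 at 2 UMIs. That of day 11 (2.47) was 3.5 at 2 UMIs, 1.82 unthinned, 1.51 without high-score cells, 1.55 without the monocyte cluster and 2.15 without the day 11 clusters. The Timd4 ratio reversed to 0.991 unthinned at steady state and to 0.961 at day 11 without the day 11 clusters. With DC status called cell by cell, cDC1-like cells moved from 0.884 to 0.744, cDC2-like cells from 1.01 to 0.728, and those of day 11 from 0.936 to 1.12 (reversed). With a macrophage reference lacking the monocyte and Retnla clusters these were 0.801, 0.912 and 0.985, and without doublet removal the day 11 value was 0.870. The median concentration of the macrophage and DC library (22.2%) was 36.4% for the top 10% of cells. Of the values that answer a comparison, 43 stayed within their counting error or 1.5 times their count under an alternative, 35 moved and 7 reversed; of the other values these were 27, 19 and 2. No paired analysis was possible because each group had 1 library. The cause of these moves was not tested. Depth limits members under 20 CPM and the 18 Ly6c2-positive cells of the macrophage and DC library.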

Other observations

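Among the few cells outside the macrophage compartment, endothelial-like cells had higher member scores than macrophages. Their medians were 35.6 UMIs per 10000 in the steady-state macrophage library and 36.3 at day 11, from 11 cells in each, against 18.7 and 12.6 in the macrophages. Lymphoid-like cells, 33 in each of these libraries, had medians of 15.1 and 14.3. They also carried macrophage RNA, with C1qa at 6295 and 3381 CPM, against 7258 and 6664 CPM in the macrophages. Their scores are thus not those of lymphoid cells alone. The sort was for CD45+ cells, so the endothelial-like cells lay outside its intended gate.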
